A study of Homo sapiens with 6 samples.

Results

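CHL-1 melanoma cells edited with CRISPR at SNORD50A/B were compared with the parental CHL-1 line by ribosome profiling, in which fragments of messenger RNA protected by ribosomes are sequenced. All RefSeq messenger transcripts listed both for the edited and for the parental cells were taken, which gave 18563 transcripts of the 20708 listed for any condition of the study. They belong to 10081 named genes, and 7232 of these had enough coding depth in both conditions to be compared. The comparison rests on 4 of the study's 6 libraries, 2 per condition. In each condition 1 library is labelled as depleted of ribosomal RNA and the other is not.

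CHL-1 is an established human melanoma cell line. The edited group carries a CRISPR edit directed at the snoRNA genes SNORD50A and SNORD50B, and the labels do not say whether it is 1 clone or a pool of cells. The parental group is the untreated line. The other group, used below only as a second level for cells without the edit, is the unedited line given 10 mM of the proline analog AZC (L-azetidine-2-carboxylic acid) and 20 µM of the proteasome inhibitor MG132 for 20 minutes. All cells grew in DMEM with fetal serum and were lysed with cycloheximide, which holds ribosomes on the message. No line edited with a control guide is among the groups, so an effect of the snoRNA edit and any other difference between the lines cannot be told apart. Each condition was deposited as 1 table that pools its libraries, so there is no spread between replicates, and no test or p-value can be given for any difference. A difference of 2-fold or more is called past 2-fold, which is a limit of size.

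Box C/D snoRNAs are short nucleolar RNAs that lie in the introns of host genes and pair with ribosomal RNA. The methyltransferase fibrillarin (FBL), held in a particle with NOP56, NOP58 and SNU13, then methylates the ribose at the paired position. SNORD50A and SNORD50B lie in introns of SNHG5 on chromosome 6, are lost in a range of cancers, and are known to bind RAS proteins and to limit their farnesylation. SNHG5 had no row in the deposited values, and introns and snoRNAs are not covered by footprints of messengers. The edit could therefore not be checked here, and "the edited line" below means the libraries labelled with CRISPR SNORD50A/B.

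Footprint depth summed over all listed messenger transcripts was 586.5 for the edited and 473.7 for the parental cells, in units of 1000000 of base depth as read from the values. Transcripts of the same gene are separate rows, so depth that they share can count more than once. The level of a gene is the depth in its coding bins per 1000000 of its table's total depth, and each coding sequence is divided into 200 bins. Footprint depth mixes the amount of a message with its translation, which cannot be told apart without total RNA. Despite its larger total, the edited table covered fewer positions: a compared gene had a median of 136 covered coding bins, against 180 in the parental table, and its highest bin held 2.99% of its coding depth against 2.29%. The number of separate fragments is unknown, so no counting interval is given. The cells' identity was checked on lineage markers. SOX10, a transcription factor of neural crest and melanocytes, stood at 293.6 in the edited and 327.7 in the parental cells. Of 13 melanocyte markers 7 were listed, and their summed levels were 357.5 and 354.7, of which SOX10 is most. MLANA was listed at 0, and PMEL, TYR and TYRP1 were not among the transcripts listed for both, which gives no level for them. The tables thus show a SOX10-positive line, and its pigment programme could be read only in part. Of 33 markers of keratinocytes, fibroblasts, blood and endothelium 5 were listed, with summed levels per class between 0 and 10.0 in the edited and between 0 and 20.4 in the parental cells.

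Most messages differed little between the lines. The median log2 ratio of edited to parental levels was -0.0063 over the 7232 genes, and the central genes, from the 5% to the 95% point of the distribution, lay between -0.71 and 0.65. Past 2-fold were 185 genes (2.56%), 80 of them on the higher side (1.11% of those compared) and 105 on the lower side (1.45%). The balance of these counts depends on how sharp peaks are treated: without the 5 highest coding bins of each row, 77 genes were higher and 182 lower. Genes with low levels made up most of both groups, since 4.04% of genes in the second-lowest of 4 equal classes of level were past 2-fold and 0.996% of those in the highest class. Log2 ratios from the first 100 and the last 100 coding bins correlated at r = 0.22 across the 7232 genes, and at r = 0.38 across the 3259 genes with 4 times the minimum depth. These values are across genes, and both sets of bins share their libraries. A stricter count was therefore taken of genes that were past 2-fold in all coding bins, in the first 100 and in the last 100, with the same direction in all 4 segments of 50 bins. That left 29 genes on the higher side (0.401%) and 46 on the lower side (0.636%).

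**Figure D1:**
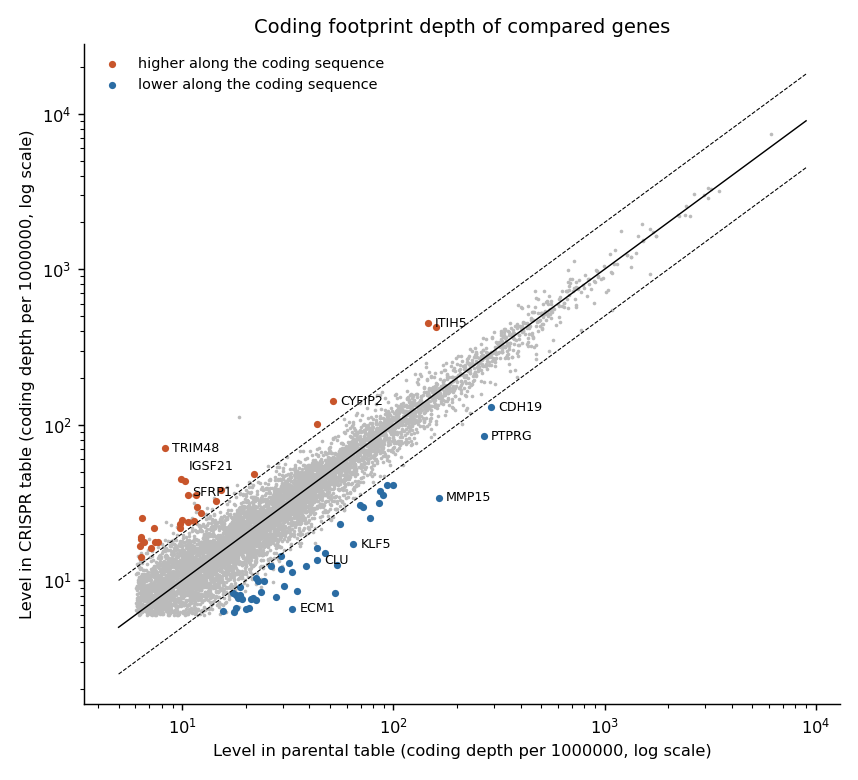
Coding footprint depth per 1000000 in the parental table (x axis, log scale) against the edited table (y axis, log scale), with 1 point per compared gene (7232), a solid line of equality and dashed lines at 2-fold. Orange points are the 29 genes higher and blue points the 46 genes lower along the coding sequence by this stricter count; the grey point above the upper line near a parental level of 18.5 is BCAS1, which was higher in every segment with depth but whose first segment was empty in both tables.

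The gene with the largest positive ratio along its whole coding sequence was TRIM48 (NM_024114, chromosome 11), a member of the tripartite motif family of ubiquitin ligases. It stood at 70.5 in the edited, 8.31 in the parental and 9.63 in AZC + MG132 cells, a log2 ratio of 3.08 between edited and parental. Its 4 segments gave 3.22, 3.12, 3.23 and 2.64, so the difference was even along the message. TRIM48 has close relatives on chromosome 11 with which it can share reads, so its own level is uncertain. IGSF21 (chromosome 1), an adhesion protein of synapses, stood at 45.1 against 9.89 in the parental and 3.35 in AZC + MG132 cells (2.19). SFRP1 (chromosome 8), a secreted antagonist of Wnt ligands, was at 43.5 against 10.3 and 3.54 (2.08). For these 3 genes the edited cells stood above both groups without the edit.

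Genes of pigment cells were among the 12 with the largest positive ratios. IRF4, a transcription factor of lymphocytes that also acts on the pigment gene TYR in melanocytes, stood at 35.4 in the edited, 10.6 in the parental and 12.4 in AZC + MG132 cells, a log2 ratio of 1.74. OCA2, a melanosomal membrane protein needed for pigment, stood at 35.4, 11.6 and 10.5 (1.60). Both were higher in all 4 segments, with lowest segments of 1.02 for IRF4 and 1.18 for OCA2. Other pigment genes were too low to be compared or were not listed for both. DCT, an enzyme of melanin synthesis, was at 13.5 against 3.39 and MITF, the lineage's master regulator, at 9.35 against 5.88. RAB27A, which tethers melanosomes for transport, was also below the minimum and went the other way, at 4.27 against 5.45. SOX10 did not share this direction, at a log2 ratio of -0.16.

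The other large positive ratios were in adhesion, cytoskeletal and signalling genes. ITIH5, a secreted protein that binds hyaluronan, stood at 451 in the edited, 145.9 in the parental and 118.3 in AZC + MG132 cells (1.63), the highest levels among these 12. COBL, which nucleates actin filaments, was at 25.1 against 6.48 and 4.80 (1.95). CYFIP2, a subunit of the WAVE complex that branches actin, was at 142.5 against 51.7 and 27.7 (1.46), with segments that ran from 0.77 at the start to 1.94 at the end of the coding sequence. ITGB8, an integrin chain that activates latent TGF-β, stood at 18.4 against 6.36 and 4.90 (1.53). RCAN1, an inhibitor of calcineurin, stood at 18.9 against 6.405 and 7.67 (1.56). FRMD7, a FERM-domain protein, stood at 21.6 against 7.38, with 14.5 in the AZC + MG132 cells (1.55). INPP4B, a lipid phosphatase, stood at 17.6 against 6.56 (1.42). In 2 of these genes the AZC + MG132 level lay nearer to the edited than to the parental level, namely FRMD7 and INPP4B, the latter at 18.8. None of the 12 lay in the stretches of neighbouring genes described below.

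**Figure D2:**
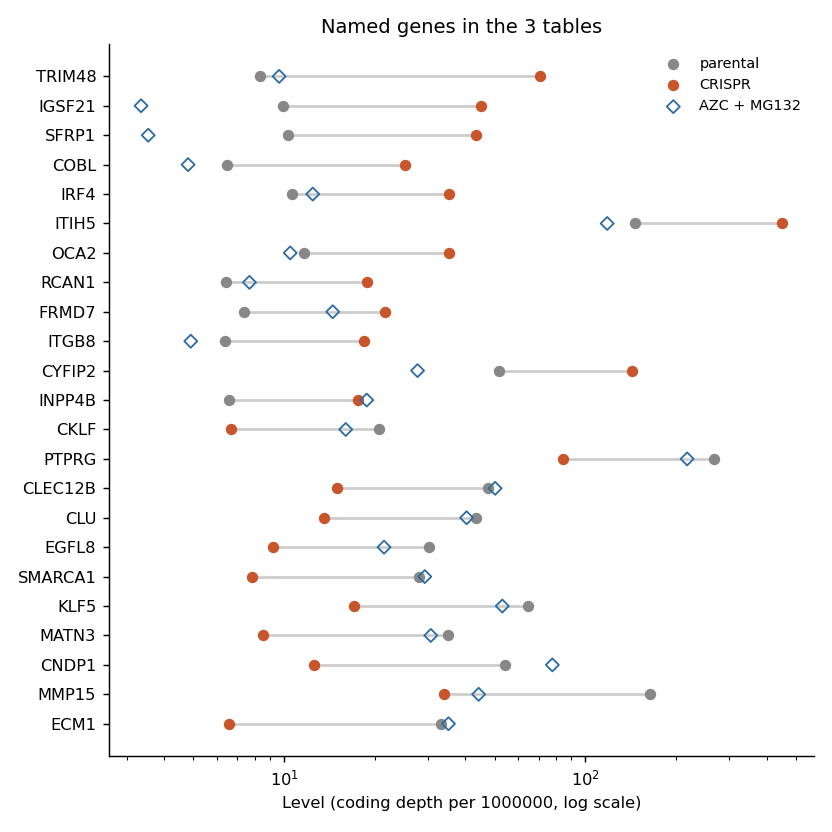
Level in coding depth per 1000000 (x axis, log scale) of the 12 genes with the largest positive and 11 of the 12 with the largest negative ratios by the stricter count. There is 1 symbol per table and a grey line between the parental and the edited level. The open diamonds of the AZC + MG132 table lie nearer the parental circles except for FRMD7, INPP4B and MMP15.

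On the lower side the 12 genes with the largest negative ratios were read in the same way, and 11 of them are described. PTPRG, a receptor tyrosine phosphatase, had the highest parental level of the 12 genes with the largest negative ratios, with 84.4 in the edited, 267.9 in the parental and 217.9 in AZC + MG132 cells (-1.67). KLF5, a zinc finger transcription factor, stood at 17.1 against 64.5 and 53.02 (-1.92). Its ratio was -0.67 in the first and -2.75 in the last segment, so the difference was not even along the message.

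The genes with the largest negative ratios included some of secreted and matrix proteins. ECM1, an extracellular matrix glycoprotein, stood at 6.57 in the edited, 33.2 in the parental and 35.1 in AZC + MG132 cells (-2.34). MATN3, a matrilin of cartilage matrix, stood at 8.50 against 34.9 and 30.7 (-2.04). CLU, a secreted chaperone, was at 13.5 against 43.5 and 40.4 (-1.68). In these 3 genes both groups without the edit stood close together and above the edited cells. MMP15, a membrane-bound matrix metalloproteinase, stood at 34.1 in the edited and 164.0 in the parental cells (-2.27), but at 44.2 in the AZC + MG132 cells, nearer to the edited level. CNDP1, a secreted dipeptidase that cleaves carnosine, was at 12.6 against 54.0 and 77.8 (-2.10). EGFL8, a secreted protein with EGF-like domains, was at 9.19 against 30.3 and 21.5 (-1.72).

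The remaining lower genes were a chromatin gene and 2 immune-type genes. SMARCA1, the ATPase of ISWI chromatin remodellers, stood at 7.82 in the edited, 27.9 in the parental and 29.3 in AZC + MG132 cells (-1.84). It is the least covered of the 12, with 44 of 200 coding bins in the edited table, and 1 bin there held 14.6% of its depth. CLEC12B, a C-type lectin receptor, stood at 14.99 against 47.6 and 50.2 (-1.67). CKLF, a chemokine-like factor, stood at 6.64 against 20.7 and 16.01 (-1.64). MMP15 and CKLF are the only 2 of the 12 that lie in a stretch of neighbouring genes that was lower as a whole.

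Genes of the snoRNA's own particle and of its locus showed no common direction. FBL stood at 109.1 in the edited and 108.7 in the parental cells, NOP58 at 123.5 and 122.2, and SNU13 at 93.1 and 90.6, all within 0.05 on the log2 scale. NOP56 alone of these core proteins stood apart, at 130.2 against 190.0, a log2 ratio of -0.55 with all 4 segments below 0. The 16 compared genes of the C/D particle and its assembly had a median of -0.02, with 8 on each side of 0 and 0 past 2-fold. Ribosome biogenesis factors and genes of the H/ACA particle, which guides pseudouridylation, had a median of -0.12 (62 genes, 41 below 0, 0 past 2-fold; 50.8% of all compared genes were below 0). Their largest ratios were UTP4 at -0.88 and URB1 at 0.86. NCL, the nucleolar protein nucleolin, was at 1755 against 1200 (0.55) and NPM1 at 1047 against 997 (0.07). Chromosomal neighbours of NCL were higher too, with a median of 0.48, so that NCL stood 0.07 above them. Those of UTP4 had a median of -0.56, which left -0.32 for UTP4, while URB1 stood 0.83 above its neighbours.

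Of 35 genes listed as neighbours of SNHG5 on chromosome 6, 18 were compared and 0 were past 2-fold. Their median was -0.03, a sign that changed between alternatives. SYNCRIP, an RNA-binding protein, stood at 294.8 against 328.3 (-0.16), and SNX14, a sorting nexin, at 19.1 against 24.1 (-0.34). The ends of this range were TPBG, a membrane antagonist of Wnt signalling, at 6.46 against 12.5 (-0.95) and PNRC1, a nuclear receptor coregulator, at 16.5 against 9.98 (0.72). NT5E was below the depth minimum, at 10.0 in the edited and 3.79 in the parental cells. The statement on 2-fold holds for the 18 compared genes as measured here: TPBG passed it at -1.08 without the 5 highest coding bins, and PNRC1 at 1.05 without the first 20 and last 20 coding bins.

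Because SNORD50A/B bind RAS, the messages of RAS proteins and of the enzymes that attach their lipid anchors were read as a group. NRAS stood at 41.7 in the edited, 34.5 in the parental and 36.7 in AZC + MG132 cells, a log2 ratio of 0.27 with 3 of 4 segments above 0. FNTA and FNTB, the subunits of farnesyltransferase, were at 17.9 against 15.9 (0.18) and at 27.3 against 23.2 (0.24). HRAS was below the minimum, at 3.68 against 6.75. The 19 compared members had a median of 0.18, with 15 above 0 and 0 past 2-fold, where 49.2% of all compared genes were above 0. The median was 0.07, with 7 below 0, after the median of each gene's chromosomal neighbours was subtracted, and over the alternatives it went as low as 0.016. RABGGTB, the catalytic subunit of the enzyme that anchors RAB proteins, was highest at 109.2 against 58.2 (0.91), and RCE1, the protease that trims prenylated proteins, lowest at 6.52 against 11.8 (-0.86). In AZC + MG132 cells RABGGTB stood at 73.4, between the other levels, and RCE1 at 6.02, below both. Output genes of the ERK pathway, which acts downstream of RAS, had a median of -0.05 over 10 members, a sign that changed between alternatives. Among them CCND1 was at 0.28, MYC at -0.27, SPRY2 at -0.83 and DUSP2 at -0.88, and 0 were past 2-fold.

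The mevalonate pathway makes cholesterol and the isoprenoid lipids that farnesylation uses. Its messages were lower in the edited cells as a group: 24 of 30 compared genes of mevalonate, sterol and fatty acid synthesis were below 0, with a median log2 ratio of -0.49, and 15 of them were below 0 in all 4 segments (13.8% of all compared genes were). Of all compared genes 50.8% were below 0, 1.11% past 2-fold higher and 1.45% past 2-fold lower. Past 2-fold in the list were 0 on the higher and 3 on the lower side. These were MVD, which makes isopentenyl diphosphate, at 6.51 against 20.0 (-1.62), LSS, which closes the sterol rings, at 9.13 against 23.5 (-1.36), and SCAP, the sterol sensor that escorts SREBP factors, at 12.9 against 26.5 (-1.03). DHCR7, a late sterol enzyme, lay lower too, at 34.0 against 65.9 (-0.95). The fatty acid enzymes FASN, at 735.5 against 1037 (-0.50), and ACLY, at 319.8 against 446.3 (-0.48), had the highest levels of the list. The difference did not cover the whole pathway, since HMGCS1, which makes HMG-CoA, stood at 58.2 against 59.2 (-0.03) and FADS2, a fatty acid desaturase, at 104 against 61.3 (0.76). The list's median was -0.33 after each gene's neighbours on the chromosome were subtracted. Its median lay between -0.55 and -0.38 over the alternatives. The AZC + MG132 levels of MVD, LSS and ACLY, 12.9, 15.6 and 349.1, lay between those of the other 2 groups. That of FASN, 640.3, lay below both. Relative to the same parental table, the AZC + MG132 cells had a median of -0.27 over the list. Their median was -0.18 over all windows of neighbouring genes described below. Members of this and the next lists that are named beyond the naming rule were chosen after their values were seen.

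**Figure D3:**
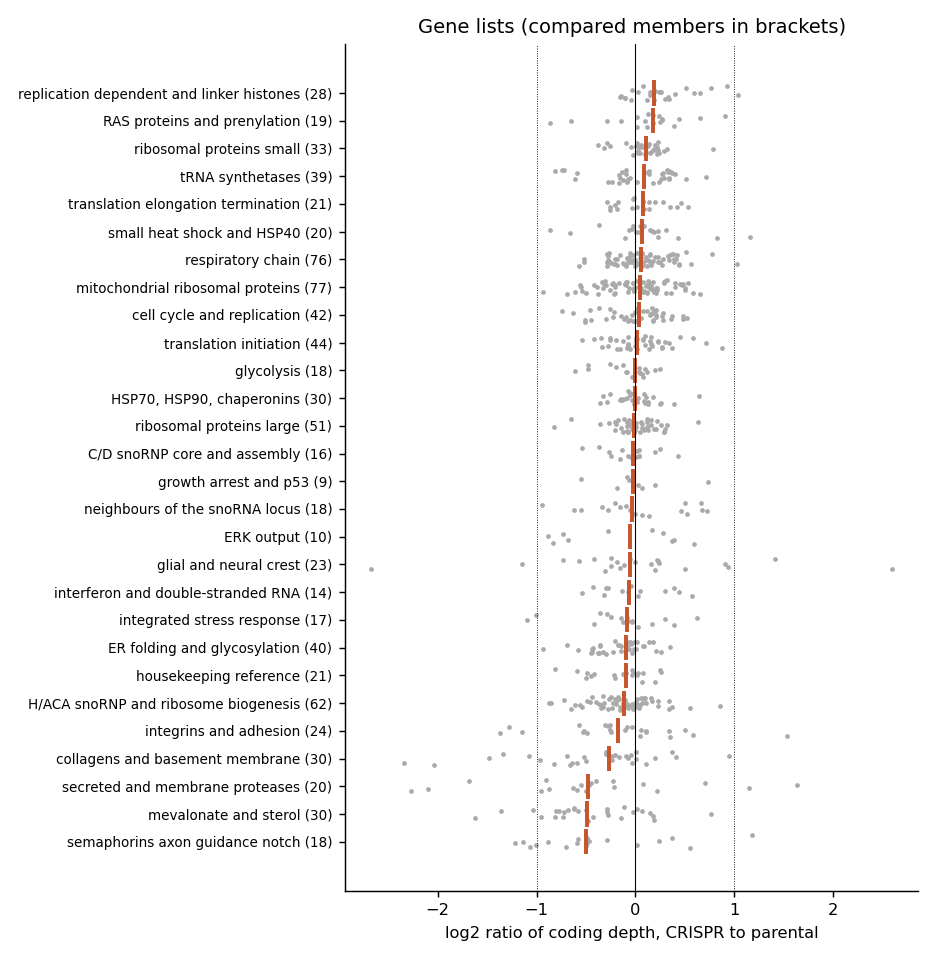
Log2 ratio of coding depth, edited to parental (x axis), for the compared members of each gene list (grey points, 1 per gene, spread vertically to be seen) with the list's median as an orange bar and the number of compared members in brackets. The lowest medians are those of axon guidance and Notch genes (-0.50), mevalonate and sterol genes (-0.49) and secreted and membrane proteases (-0.48).

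Matrix, protease and guidance genes lay lower as well. Of 30 collagens, laminins and other matrix genes 23 were below 0 (median -0.27), with 0 past 2-fold higher and 5 lower, where 50.8% of all compared genes were below 0 and 1.45% past 2-fold lower. The AZC + MG132 cells, set against the same parental table, had a median of -0.34 over these genes. Besides ECM1 and MATN3 these were LOXL2, which crosslinks collagen, at 8.42 against 23.5 (-1.48), FBLN1 at 7.60 against 19.2 (-1.34) and NID1, a link of the basement membrane, at 17.4 against 36.7 (-1.07). The abundant chains COL11A1, at 709.8 against 1020 (-0.52), and COL18A1, at 569.1 against 639.3 (-0.17), were within 2-fold. Among 20 secreted and membrane proteases and their inhibitors 15 were below 0 (median -0.48), 3 were past 2-fold lower (MMP15, CNDP1 and CLU) and 2 higher. The AZC + MG132 cells had a median of -0.30 over these proteases and inhibitors. MMP14, which activates other metalloproteinases, was at 118.7 against 229.8 (-0.95) and PLAT, tissue plasminogen activator, at 607.3 against 892.1 (-0.55). The 2 higher genes were ITIH5 and HTRA1, a secreted serine protease at 24.3 against 10.95 (1.15). Of all compared genes 1.11% were past 2-fold higher. CNDP1 and CLU stand in this list although the first cleaves a dipeptide and the second is a chaperone.

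Axon guidance and Notch genes had a median of -0.50 over 18 members, with 13 below 0, 4 past 2-fold lower and 1 higher. The AZC + MG132 cells, relative to the same parental table, had a median of -0.37 over this list. ROBO1 and ROBO2, the receptors of SLIT proteins, stood at 9.85 against 22.9 (-1.21) and 6.76 against 14.9 (-1.14). ROBO1 was at -0.95 without the first 20 and last 20 coding bins. PLXND1, a semaphorin receptor, was at -1.07 and EFNB2, an ephrin, at -1.01. NOTCH2 stood at 58.7 against 95.5 (-0.70). The semaphorin SEMA6A went the other way, at 41.2 against 18.2 (1.17). Among 24 integrins and adhesion genes 3 were past 2-fold lower and 1 higher, and 15 were below 0 (median -0.18, or -0.04 after the median of each gene's chromosomal neighbours was subtracted), against the same 50.8% and 1.45% of all compared genes. The 3 were ITGB4, an integrin chain of hemidesmosomes, at 7.44 against 19.3 (-1.37), CDH11 at 41.01 against 99.6 (-1.28) and CDH19, a cadherin of glial and pigment cell precursors, at 130.04 against 289.0 (-1.15). Over the 24 integrins and adhesion genes the AZC + MG132 cells had a median of -0.39, lower than that of the edited cells.

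Many of these proteins enter the endoplasmic reticulum, and the folding genes of that compartment were read next. Of 40 compared genes 31 were below 0 and 16 were below 0 in all 4 segments, with a median of -0.09 and 0 past 2-fold. Of all compared genes 50.8% were below 0 and 13.8% were below 0 in all 4 segments. A list of 21 housekeeping genes lay similarly, at a median of -0.10 with 14 below 0 and 8 below 0 in all 4 segments. Among the folding genes FKBP10, a collagen chaperone, was lowest at 47.2 against 90.5 (-0.94). P4HB, the disulfide isomerase that is also part of prolyl hydroxylase, followed at 351.5 against 569.9 (-0.70). HSPA5, the main chaperone there, stood at 1041 against 1332 (-0.35), and HSP90B1 at 1529 against 1525 (0.00). In AZC + MG132 cells FKBP10 stood at 50.1, P4HB at 404.0, HSPA5 at 1999 and HSP90B1 at 1274. HSP70, HSP90, chaperonin and co-chaperone genes had a median of -0.01 over 30 members, a sign that changed between alternatives. HSPD1, the mitochondrial chaperonin, was at 1961 against 1497 (0.39), and the median of its chromosomal neighbours was 0.30. Among 20 small heat shock and HSP40 genes DNAJB4 was past 2-fold higher (20.3 against 9.06, a log2 ratio of 1.16), but at 0.88 in the values as deposited. Its AZC + MG132 level, 23.5, lay above the edited one. Of all compared genes 1.11% were past 2-fold higher. CRYAB, a small heat shock protein, was below the minimum in the edited cells, at 4.53 against 29.3 in the parental and 26.5 in AZC + MG132 cells.

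Glial and neural crest genes spread in both directions around a median of -0.06 (23 genes, 2 past 2-fold higher and 2 lower). Of all compared genes 1.11% were past 2-fold higher and 1.45% lower. BCAS1, a protein of myelinating cells, stood at 112.2 in the edited, 18.5 in the parental and 24.5 in AZC + MG132 cells (2.60). Its first segment held no depth in either table and shows nothing, and the other segments were at 3.23, 2.80 and 2.21. DNER, a Notch ligand of neurons, stood at 423.3 against 158.8 (1.41). PAX3, an early neural crest factor, was within 2-fold at 15.5 against 8.27 (0.91). Chromosomal neighbours of DNER and of PAX3 were higher too, with a median of 0.48 for each. CDH19 was past 2-fold lower, as given above, and CNP and PMP22, genes of myelin, lay close to 0, at 536.9 against 559.0 (-0.06) and at 271 against 243 (0.16). NES, the intermediate filament of progenitors, was at 182 against 303 (-0.73).

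The translation machinery itself differed little. Proteins of the small ribosomal subunit had a median of 0.10, with 26 of 33 above 0, where 49.2% of all compared genes were, and 0 past 2-fold. The largest ratio was that of RPS27L, a homolog outside the standard subunit, at 0.79. Those of the large subunit had a median of -0.02 over 51 genes, a sign that changed between alternatives. Its largest differences were RPL13 at 266.4 against 472.7 (-0.83), which lies in the lower stretch on chromosome 16, and RPL18 at 124.6 against 196.3 (-0.66), in the lower stretch on chromosome 19. In AZC + MG132 cells RPL13 stood at 288.4, near the edited level, and RPL18 at 208.6, above the parental level. Initiation factors had a median of 0.01 (44 genes, a sign that changed between alternatives), and their largest ratios were those of 2 X-linked genes, EIF1AX at 163.1 against 88.8 (0.88) and EIF2S3 at 234.2 against 142.6 (0.72). Chromosomal neighbours of EIF1AX and of EIF2S3 were higher too, with medians of 0.45 and 0.30. Elongation and termination factors had a median of 0.08. EEF1A1 stood at 7449 against 6162 (0.27) and EEF2 at 1802 against 1639 (0.14). The housekeeping messages ACTB, at 3192 against 3493 (-0.13), and GAPDH, at 2555 against 2437 (0.07), were close, whereas ACTG1, which can share reads with ACTB, was at 934.0 against 1647 (-0.82). As a list, 21 housekeeping genes had a median of -0.10 with 14 below 0. After the median of each gene's chromosomal neighbours was subtracted, it was -0.13 with 16 below 0.

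Genes of the integrated stress response, which lowers initiation through eIF2, had a median of -0.08 over 17 members, with 0 past 2-fold higher and 2 lower. Of all compared genes 1.11% were past 2-fold higher and 1.45% lower. EIF2AK4, the kinase that senses uncharged tRNA, stood at 10.4 in the edited, 22.3 in the parental and 8.58 in AZC + MG132 cells (-1.09). SLC1A5, a glutamine transporter, was at 55.4 against 111.2 (-1.005), a value at the limit that became -0.998 when scaled to the median ratio and -0.92 when all 400 bins were summed. The amino acid transporter subunits SLC7A5 and SLC3A2 were at -0.42 and -0.36. Chromosomal neighbours of SLC1A5 and of SLC7A5 were lower too, with medians of -0.68 and -0.52, so that SLC7A5 stood 0.10 above its neighbours. The 2 mitochondrial lists, ribosomal proteins and respiratory chain subunits, had medians of 0.05 each over 77 and 76 genes, and the sign changed between alternatives for the first. MRPS21 was below the minimum in the edited cells, at 4.38 against 28.9 in the parental and 36.3 in AZC + MG132 cells. Cell cycle and replication genes had a median of 0.03 over 42 members with 0 past 2-fold.

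Histone genes of the replication-dependent and linker classes had a median of 0.19, with 22 of 28 above 0 and 14 above 0 in all 4 segments (10.4% of all compared genes were). H1-3, a linker histone, was past 2-fold at 42.7 against 20.7 (1.04, but 0.81 in the values as deposited), while the abundant H3C14 was at 1632 against 1757 (-0.11). Copies such as H4C14 and H4C15 share nearly all their sequence, so their separate values are uncertain. Of the 28 genes 17 lie in a stretch on chromosome 6 that was higher as a whole, and the list's median was -0.0052 after neighbours were subtracted. That stretch holds only 31 genes, so the neighbours there are largely the listed histones themselves. The subtraction therefore cannot tell the list from its position. The same list stood at a median of 0.58 in the AZC + MG132 cells relative to the parental table that both ratios share.

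Differences also followed position on the chromosomes. When compared genes were put in chromosome order and the median log2 ratio of each 31 neighbours was taken, the medians lay between -0.69 and 0.55, and 3.23% of 6539 windows were at least 0.4 in size. The SD of the window medians was 0.16, against 0.11 for the AZC + MG132 cells relative to the same parental table. Windows past 0.4 joined into 7 stretches, which were marked out from these values and are given as a description. They hold 463 genes. The longest, on chromosome 16 from SRCAP to TUBB3, holds 139 genes, of which 122 were below 0, with a median of -0.47, or 0.72 times the parental level. On chromosome 19 the 80 genes from COQ8B to ZNF701 had a median of -0.56, or 0.68 times, with 70 below 0. On chromosome 18 a stretch of 32 genes from USP14 to RNMT was at -0.40 and one of 52 genes from ROCK1 to MBD2 at -0.38, and 94 of the chromosome's 115 compared genes were below 0.

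Stretches of higher level lay on chromosomes 2, 6 and X. The 88 genes from NDUFS1 to ING5 on chromosome 2 had a median of 0.45, or 1.37 times the parental level, with 80 above 0. For the same stretch the AZC + MG132 cells were at -0.19, close to their median over all windows of -0.18. The 41 genes from ZBED1 to KDM6A on the X chromosome had a median of 0.38. The 31 genes from H3C4 to POLR1H on chromosome 6 had a median of 0.41, but this stretch, which holds histone genes, was also at 0.39 in the AZC + MG132 cells. Its median was 0.22 over genes with 4 times the minimum depth and 0.26 without the first and last 20 coding bins. Within the 7 stretches 2.59% of genes were past 2-fold higher and 4.97% lower, and outside them 1.005% and 1.21%. Genes past 2-fold inside the stretches included MMP15, CKLF, MVD and CDH11 on chromosome 16, CYTH2, DHX34 and KLK6 on chromosome 19, and NHEJ1, PNKD and DNER on chromosome 2. Whether copy number differs between the lines was not tested.

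**Figure D4:**
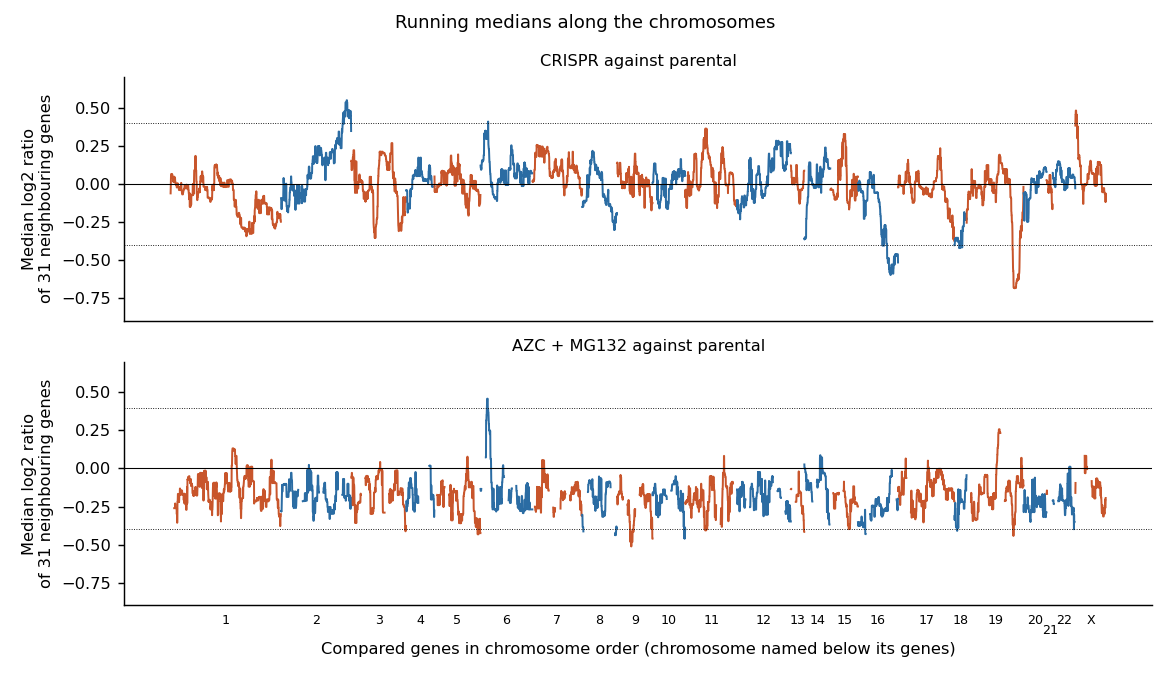
Median log2 ratio of 31 neighbouring compared genes (y axis) along the genes in chromosome order (x axis, chromosomes in alternating colours), for the edited cells (upper panel) and the AZC + MG132 cells (lower panel), both relative to the same parental table; dotted lines mark 0.4 in size. The upper panel runs from -0.69 on chromosome 19 to 0.55 on chromosome 2, and gaps are windows without a value.

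Finally the position of footprints along the message was compared, since ribosomes that differ in initiation or elongation can redistribute. Coding bins held 84.8% of all depth in the edited and 85.6% in the parental table, 5′ UTR bins 10.7% and 10.0%, and 3′ UTR bins 4.53% and 4.38%. The 5′ share of a gene, the mean depth of its first 20 coding bins over that of all 200, had a median of 0.95 in the edited and 0.92 in the parental cells. Per gene the log2 ratio of the 5′ shares had a median of 0.06, an interquartile range of -0.52 to 0.53, and 53.5% of genes above 0. The spread between genes was thus far wider than the difference in medians. The 5′ share was 2-fold or more higher in 843 genes (11.7%) and lower in 1104 (15.3%). Among the 3259 genes with 4 times the minimum depth it was so in 159 (4.88%) and 240 (7.36%).

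In the average profile of the 3259 better covered genes the 2 tables ran together over most of the coding sequence, where 9 of 10 windows of 20 bins had ratios between 0.984 and 1.005. The first window stood at 1.04 in the edited and 0.96 in the parental cells, a ratio of 1.08. At the first coding bin the mean scaled depth was 1.45 against 1.20, while the medians there, 0.95 and 0.89, lay closer together. At the last coding bin the means were 1.88 and 1.72, and in the first bin of the 3′ UTR 1.80 and 1.55. These are single bins: the last window of 20 coding bins had a ratio of 1.005, and the median gene's depth there was 1.075 times its coding mean in the edited and 1.097 times in the parental cells. Among the coding windows the largest difference was thus in the first. Windows outside the coding sequence, where depth is low, had ratios from 1.04 to 1.12. The highest were 1.12 in the first window of the 3′ UTR and 1.11 in the last of the 5′ UTR. Single high bins also held more of a gene's depth in the edited cells, and their part in these means was not tested. The 10 genes with the most extreme 5′ shares had the first 20 bins empty or nearly so in 1 table and are named only. They were MTX1, ABHD10, SCAND1, MRPL40 and ESYT2 on the higher side and LSM14A, EIF4E2, ICMT, PABPN1 and CMPK1 on the lower side.

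**Figure D5:**
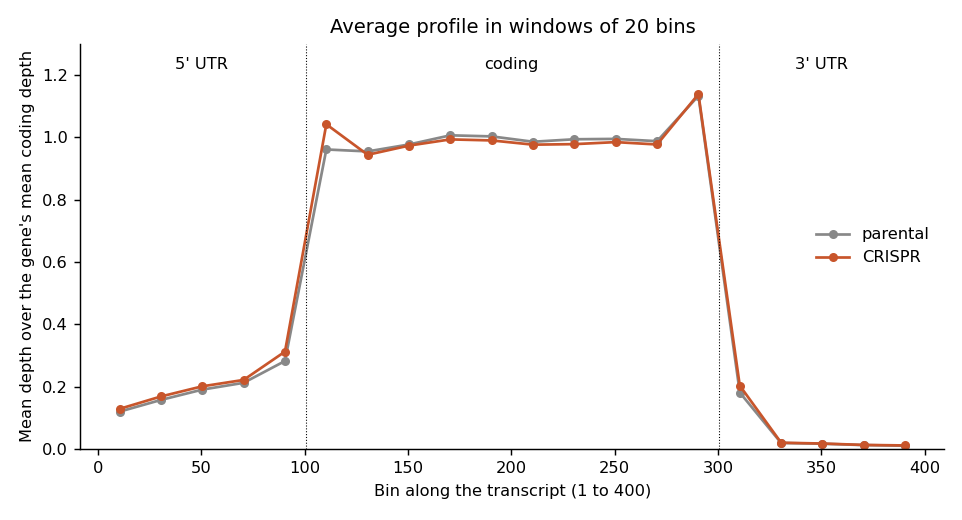
Mean depth over the gene's mean coding depth (y axis) in windows of 20 bins along the transcript (x axis, bins 1 to 400) for the 3259 genes with 4 times the minimum depth, in the parental (grey) and edited (orange) tables. The curves separate in the first coding window, at 1.04 and 0.96, and nearly coincide in the other coding windows.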

How the data were processed

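Libraries followed a published ribosome profiling protocol, per the labels' protocols. Bowtie2, TopHat2 (versions not stated) and build hg19 are named in the submitters' processing notes. No source used here says how 2 libraries of a group entered 1 table. Deposited values stand on a log2 scale: log2(x + 1) with 2 decimals, in 400 bins per transcript, where x was read from the values as summed base depth. Bins 1 to 100 were read as 5′ UTR, 101 to 300 as coding sequence and 301 to 400 as 3′ UTR. In coding bins the deposited log2 value of the row above had been added before the logarithm. It was subtracted here, after which 100% of low coding bins were whole numbers within 0.1. It made up 3.42% of coding depth in the edited and 4.37% in the parental table.

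For each gene the transcript with the highest mean coding level was used. Levels are coding depth over the table's total, times 1000000. Log2 ratios used a pseudocount of 0.5 on depth. Genes were compared above the lower quartile of coding depth of the shared transcripts in both tables (3510 edited, 2874 parental). Gene names and chromosome order came from the RefSeq table of GRCh38.p14, used for no coordinates. 201 of the shared transcripts had no name there.

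The genes, 29 lists and 5 marker lists were chosen with earlier results of these data known. Named genes are the 12 largest ratios in each direction with agreement along the coding sequence, per list the 2 largest ratios and the 2 highest parental levels, a fixed set, and the 5 largest differences of 5′ share in each direction. Some items the rule names are not reported here. Alternatives varied scaling, minimum, pseudocount, bins, the carried row and the transcript choice. The neighbour windows, their stretches and the counts by parts of the coding sequence were added after seeing the data. The steps were tested on simulated tables. Python 3.11.15, numpy 2.4.6, pandas 2.3.3 and matplotlib 3.10.9 were used.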

Additional observations from a re-analysis of the deposited data

Results flagged for a closer look

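Some messages were listed for the edited cells and not for the parental cells, outside the compared set. PEG3, an imprinted zinc finger gene, stood at a level of 48.63 in the edited table, with depth in 124 of 200 coding bins. SYNE1, a giant protein of the nuclear envelope, stood at 33.03 and CRACR2A, a calcium sensor of vesicle traffic, at 21.9. Neither the parental nor the AZC + MG132 table listed these transcripts. No source used here says how the authors chose the listed transcripts, so a level for the missing tables cannot be stated.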

How the results depend on the processing

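No named gene past 2-fold and no stretch changed direction under the alternatives run. The 80 higher and 105 lower genes became 7 and 19 with a minimum 4 times higher, and 357 and 530 with no minimum. They became 132 and 182 with every transcript row. Values as deposited gave 37 higher genes, the lower count staying within 1.5 times. Leaving out the 5 highest bins gave 182 lower genes, the higher count staying within 1.5 times. Agreement over 2 parts and 4 segments of the coding sequence, added after seeing the data, gave 29 and 46. The share past 2-fold, 2.56%, was 0.798% with the higher minimum, 8.83% with none, 1.52% as deposited and 1.04% with that agreement. Without the most abundant 1% of rows, 5′ UTR shares were 9.12% (edited) and 8.28% (parental) and 3′ UTR shares 3.45% and 3.26%. The 7 stretches became 11 with windows of 21 genes and 4 with windows of 41. The cause of these shifts was not tested beyond the fewer or more genes that each setting admits. Of 36 named genes past 2-fold 31 stayed so under each alternative that gave a value, and of 109 others 8 passed under some alternative. Medians of 19 of 29 lists kept their sign and those of the other 10, all small, changed it under at least 1 alternative. The stretch from USP14 to RNMT was at -0.51 with the higher minimum and -0.50 without the highest bins. No paired analysis was possible because each table pools its group's libraries, and for the same reason no library could be left out.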

Other observations

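On the parental side, 21 genes above the depth minimum were listed for the parental and not for the edited cells, against 37 listed for the edited cells alone. FBN1, the main protein of microfibrils, stood at 45.3 in parental and 42.8 in AZC + MG132 cells. PTK7, a receptor-like protein of Wnt signalling, stood at 26.7 and 12.2, and LPL, lipoprotein lipase, at 11.6 and 9.67. A missing row gives no ratio.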
